A study of Drosophila melanogaster with 12 samples.

Results

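Expressed long noncoding RNA (lncRNA) genes are the subject here: 61 of the 1621 FlyBase identifiers whose symbol starts with "lncRNA:", out of 17023 identifiers counted. The genes were chosen by their measured levels: the count, scaled to a library total of 1000000 (CPM), had to be at least 5 in at least 2 of 10 ovary libraries. The same count tables supplied this choice and every value below, so levels, counts and medians over the 61 genes are descriptions and carry no test. Symbols are given without their prefix.

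Messenger RNA of Drosophila melanogaster ovaries, taken from flies 1 to 3 days after eclosion, was sequenced in 12 libraries, 2 for each of 6 sets. Germline knockdowns (GKD in the labels and figures) targeted SETDB1 (gene egg, a histone H3 lysine 9 methyltransferase), wde (its cofactor) or Nup154 (a nuclear pore protein, which the design text calls a developmental control). The control sets are a young pair whose titles name NGVP16, a young pair whose titles carry the word virgin, and a pair called adult control. The virgin titles differ, with DcrVirgin for replicate 1 and VIRGIN for replicate 2, so only replicate 1 also names Dcr. These libraries were taken as a pair by their shared label. The titles of the adult control pair name DCR, and its stated age is the same 1 to 3 days. The 10 libraries of the rule are those of the knockdowns and the young controls. The labels used here name no driver, hairpin line or strain beyond these titles, and they do not say that replicates came from separate flies. The p-values therefore reflect the spread from library to library alone, and that spread may be technical.

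An lncRNA gene makes a spliced or unspliced transcript, often with a poly(A) tail, that encodes no known protein. Some act as RNA at the site where they are made or on a nuclear body, and some are long precursors from which microRNAs or small nucleolar RNAs are cut. Many have no assigned function. SETDB1 places the histone mark of heterochromatin, which keeps transposable elements and some genes silent in the female germline.

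Total counts ran from 7351948 to 20162235 in the 10 libraries and were 471770 and 682565 in the adult pair, where 5 CPM is only 2.36 and 3.41 counts. The targeted genes were only in part lower in bulk ovary RNA. The gene egg had 33.7 and 39.7 CPM in SETDB1 knockdown against 33.1 and 75.8 in the NGVP16 pair (log2 fold change −0.70 ± 0.35 SE, adjusted p = 0.178). For wde the values were 75.1 and 91.1 CPM in wde knockdown against 41.6 and 153 (−0.36 ± 0.44, adjusted p = 0.540). Nup154 fell, from 139 and 240 CPM to 76.5 and 72.0 (−1.43 ± 0.33, adjusted p = 0.00695). All these tests are edgeR's quasi-likelihood test with Benjamini-Hochberg adjustment over 10790 genes, with a threshold of 0.05.

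Several libraries stood apart. In the adult pair, 358 genes annotated as antisense RNA took 39.1% and 40.7% of all counts, against 0.00824% to 0.0182% in the 10 others, and germline markers took 0.00337% and 0.00424%, so that pair is described only once, near the end. The NGVP16 libraries differed from each other more than any other pair did, and their difference followed exon length (Spearman's rho across 6993 genes −0.799, a description). The virgin pair had a trend of the same kind (−0.582), and the SETDB1, wde and Nup154 knockdown pairs had 0.286, 0.177 and 0.0368. The cell types in the ovaries also differed. Of the counts, 4 germline markers (osk, bam, aub, otu) took 0.0161% to 0.0470% in the 6 knockdown libraries and 0.214% to 0.365% in the 4 young control libraries. Eggshell genes took 0.00539% to 0.152% against 0.283% to 0.849%, muscle genes 1.78% to 2.31% against 0.201% to 0.332%, and blood cell genes 0.108% to 0.315% against 0.00304% to 0.00899%. Neuron genes took 0.00663% to 0.0111% against 0.00122% to 0.00332%, and testis genes 0.00337% to 0.00638% against 0.00115% to 0.00289%. Fat body genes took 0.127% and 0.0400% in SETDB1 knockdown and 0.176% and 0.182% in wde knockdown. They took 0.0218% and 0.0204% in Nup154 knockdown and 0.00260% to 0.0244% in the young controls. Gut genes took 0.128% in SETDB1 knockdown replicate 1 but 8.05e-05% in its replicate 2, and at most 0.0231% elsewhere. In bulk ovary RNA, more cells of a type and more RNA per cell cannot be told apart. The part of these shifts in the lncRNA results was not tested.

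The 61 genes took a small part of the RNA. Their share of counts was 0.306% and 0.346% in SETDB1 knockdown, 0.371% and 0.257% in wde knockdown, and 0.351% and 0.366% in Nup154 knockdown. The NGVP16 libraries had 0.113% and 0.209%, and the virgin libraries 0.0781% and 0.137%. Every knockdown library was thus above every young control library. Much of that share was CR42862, which overlaps the coding gene CG33229 by 246 bp of exon on the same strand. Without CR42862 the shares were 0.191% and 0.264% in SETDB1 knockdown, 0.138% and 0.120% in wde knockdown, 0.112% and 0.118% in Nup154 knockdown, 0.0804% and 0.0867% for NGVP16, and 0.0541% and 0.0689% for the virgin libraries. The knockdown libraries still lay above the young controls, with SETDB1 knockdown highest. A large part of the SETDB1 knockdown share was in turn CR43264, whose levels are given below. The size of the SETDB1 knockdown lead therefore leans in part on that gene. By mean CPM, SETDB1 knockdown was the highest set for 26 of the 61 genes and wde knockdown for 11. Nup154 knockdown was highest for 9, the NGVP16 pair for 6 and the virgin pair for 9. The genes were chosen by these same levels, so the counts are a description.

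**Figure D1:**
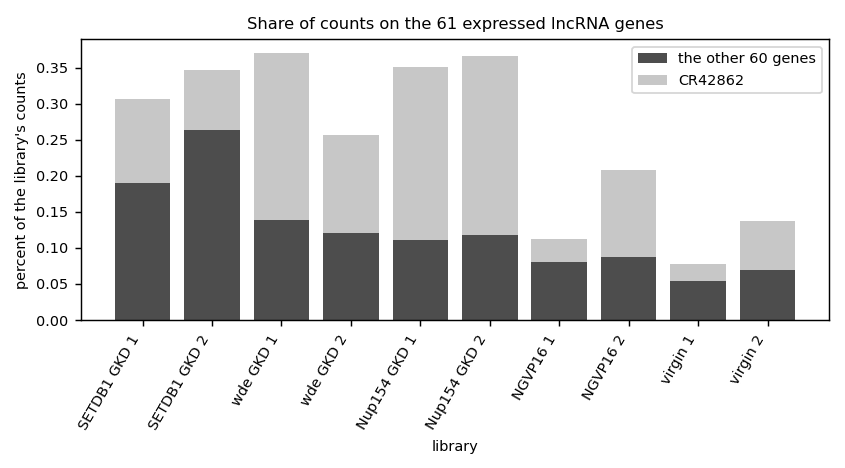
Percent of each library's counts (vertical axis) on the 61 expressed lncRNA genes in the 10 knockdown and young control libraries, with CR42862 in light grey and the other 60 genes in dark grey. The dark bars are highest in SETDB1 knockdown, at 0.191% and 0.264%, and lowest in the virgin pair, at 0.0541% and 0.0689%. CR43264 is a large part of the dark bars of SETDB1 knockdown.

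Most of the genes were sparse. The mean level over the 10 libraries had a median of 6.36 CPM and ran from 1.25 to 1301 CPM. Per kilobase of exon, the median was 6.00 CPM, against 19.2 for 8160 coding genes that met the same rule. Per kilobase, CR43264 (519 CPM), CR40469 (488) and CR42862 (237) were highest by mean over the 10 libraries. In all 10 libraries 13 of the genes reached 5 CPM, while 11 reached it in both libraries of 1 set and in no other library, 7 of them in SETDB1 knockdown, 3 in wde knockdown, 1 in Nup154 knockdown and 0 in a control pair. Those 11 had to differ between sets by the way they were chosen. More widely, 21 of the 61 would not meet the rule without the libraries of 1 set: 11 rest on SETDB1 knockdown, 6 on wde knockdown, 4 on Nup154 knockdown, 4 on the NGVP16 pair and 1 on the virgin pair, some of them on more than 1 set. Where such a gene is compared in a set it rests on, its values are described with no test. Some other genes reached 5 CPM in knockdown libraries alone, through more than 1 set. Their tests are given below, but the choice favoured genes that are high in the knockdowns. At the edge of the rule, the second-highest library was at 5.20 CPM for CR45174 and 5.23 for CR43651, and just outside at 4.57 for CR44263 and 4.52 for CR44283. The dosage compensation RNAs roX1 and roX2, which coat the X chromosome of males, were not among the 61, with at most 4.57 and 1.32 CPM.

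**Figure D2:**
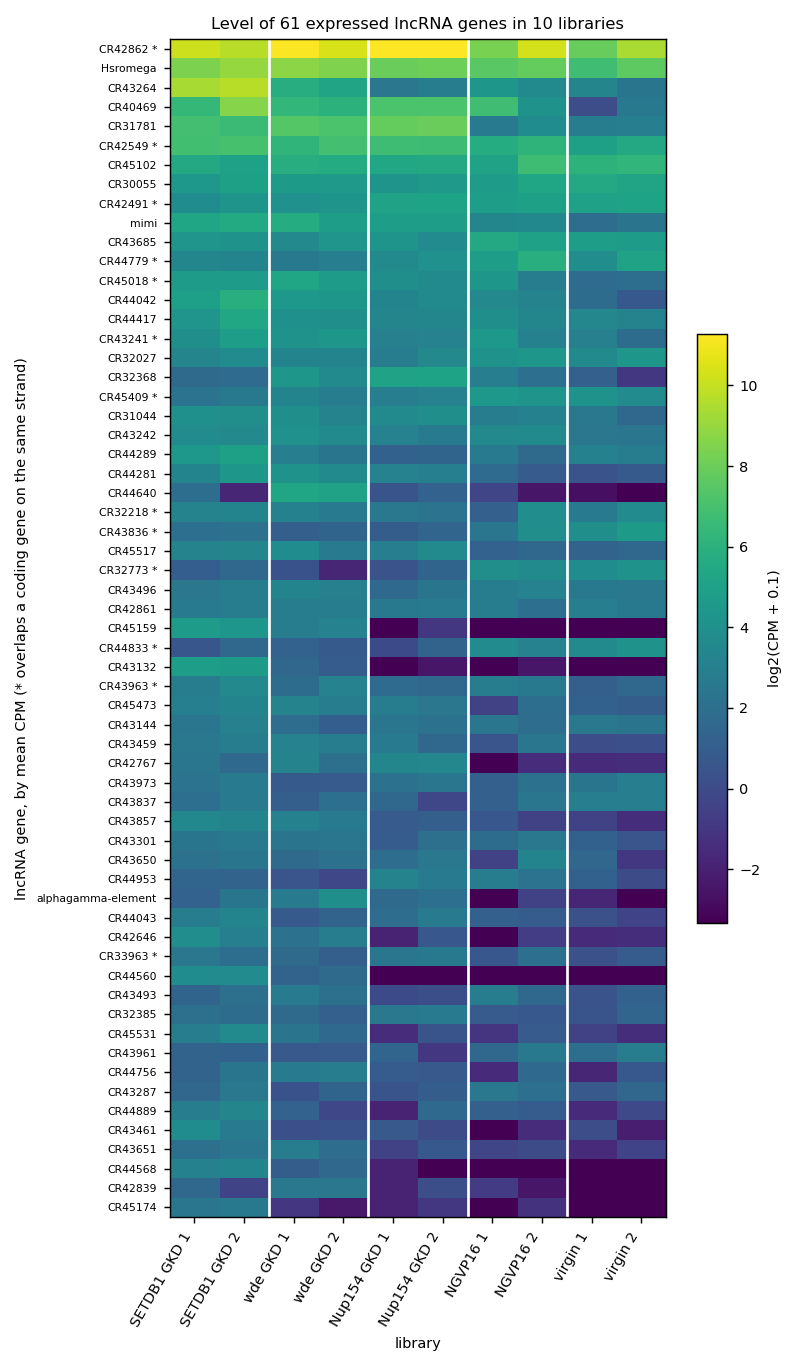
Level of each of the 61 genes (rows, ordered by mean CPM) in the 10 knockdown and young control libraries (columns), as log2(CPM + 0.1) by colour. An asterisk marks the 13 genes that overlap a coding gene on the same strand. The dark cells of the lower rows lie mostly in the Nup154 knockdown, NGVP16 and virgin columns.

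By annotation (Ensembl release 115 of BDGP6, the dm6 coordinates), 30 of the 61 (49.2%) overlapped no coding gene, against 74.8% of all 1621 listed lncRNA genes. Another 9 shared exon sequence with a coding gene on the same strand and 4 lay on the same strand within its span. The strand setting of the deposited counts is not given in the sources used here, and reads of the shared exons cannot be assigned to either gene, so the levels of these 13 are uncertain. Opposite-strand exons were overlapped by 2 and opposite-strand spans only by 16. On the X chromosome lay 25 of the 61 (41%), against 13.5% of the listed lncRNA genes and 17% of the coding genes that met the same rule. The share on 2L was 8.2%, against 30% of the listed genes. A fragment of a transposable element lay in an exon of 6 of the 61 (9.84%), against 2.47% of those listed. These were CR43241 (INE-1), alphagamma-element (Dm88 and invader1), CR42646 (Fw2 and INE-1), CR43493 (FB), CR42839 (G5) and CR45174 (gypsy8). The median exon length was 1171 bp for the 61 and 605 bp for those listed, and 42.6% against 66.5% had a single exon block. A start site within 1000 bp of a coding gene's start, facing away from it, was held by 11 of the 61.

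Against the NGVP16 pair, 16 of the 61 genes were higher and 6 lower in SETDB1 knockdown, where 12.7% of all genes tested were higher and 9.91% lower. In wde knockdown 14 were higher and 8 lower, against 17.7% and 17.4% of all genes. In Nup154 knockdown 5 were higher and 8 lower, against 17.6% and 17.1%. As shares of the 61, the higher calls were 26.2%, 23% and 8.2%, and the lower calls 9.84%, 13.1% and 13.1%. The median log2 fold change of the 61 was 0.80, 0.22 and 0.00, beside 0.02, −0.01 and 0.00 over all genes tested. Of the higher calls, 7, 3 and 1 were of genes that rest on a set compared, as was 1 of the lower calls in Nup154 knockdown, which leaves 9, 11 and 4 higher and 6, 8 and 7 lower. What is left is not free of the choice of genes. CR45159, CR42767, CR44281 and CR43857 stay in these counts. Each was under 5 CPM in every young control library and met the rule through knockdown libraries alone. The same holds for CR43132, CR44560, CR44568 and CR42646, which rest on SETDB1 knockdown and stay among the higher calls of wde knockdown. Among the 35 genes with a mean of at least 5 CPM over the 10 libraries, 2 of which (CR43132 and CR44640) still rest on 1 set for the rule, 8 were higher and 6 lower in SETDB1 knockdown, 7 and 7 in wde knockdown, and 3 and 7 in Nup154 knockdown. The 3 comparisons share their control libraries, and 31 of the 61 genes passed the test in none of them. Without the adult pair in the fit the counts were 18 and 5, 16 and 7, and 8 and 8.

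The calls were also counted by position, as a description. Genes that rest on a set compared were left in. They gave 7, 3 and 1 higher calls in SETDB1, wde and Nup154 knockdown, and 1 lower call in Nup154 knockdown. All 16, 14 and 5 higher calls were on the 48 genes with no same-strand coding overlap, which had 1, 2 and 3 lower calls. The 13 with such an overlap had 0 higher calls in each knockdown and 5, 6 and 5 lower ones. At an unadjusted p under 0.05, 1, 0 and 1 of the 13 were higher, and DESeq2 called 1, 0 and 1 of them higher. This contrast was seen in the data and was not tested, and under scaling to ribosomal protein genes the lower calls of the 13 were 0, 1 and 0, with 1 higher call in wde knockdown. Of the 25 genes on the X, 6 were higher and 4 lower in SETDB1 knockdown, 4 and 5 in wde knockdown, and 1 and 6 in Nup154 knockdown. Of the 36 on other chromosomes, 10 were higher and 2 lower, 10 and 3, and 4 and 2. The difference between the X and the other chromosomes was not tested.

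**Figure D3:**
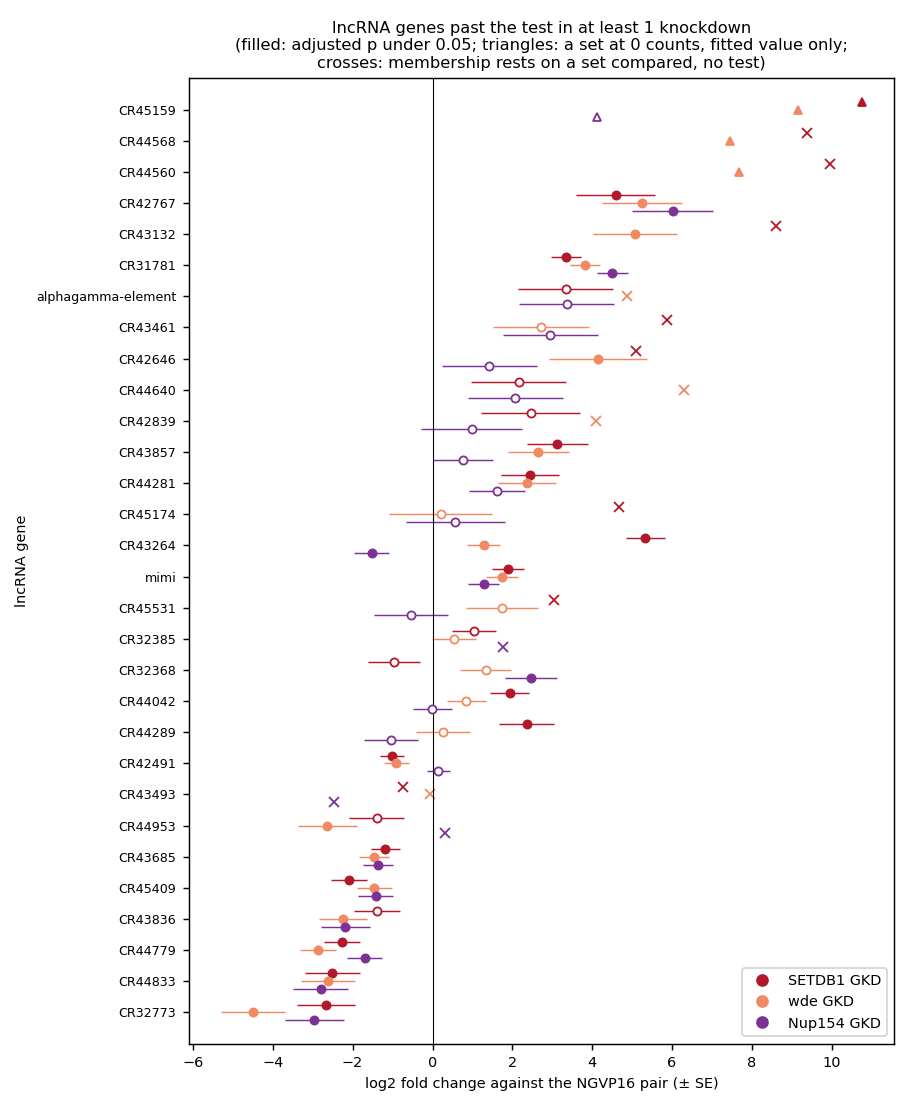
Fitted log2 fold change ± SE against the NGVP16 pair (horizontal axis) for the 30 genes past the test in at least 1 knockdown, with the 3 knockdowns in 3 colours. Filled marks have an adjusted p under 0.05, crosses are genes that rest on a set compared and are drawn with no test, triangles mark a set at 0 counts, whose fitted value is no measure of size, and pairs of sets with at most 3 counts each are left out. The top rows hold genes with filled marks or crosses for SETDB1 knockdown and wde knockdown, and the bottom rows hold the genes that fell.

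The rise that reached the highest level in SETDB1 knockdown was that of CR43264 (X, 5831898 to 5832215, minus strand, 318 bp), which lies within the span of the coding gene CG15765 on the opposite strand and has no assigned role. Its level was 659 and 838 CPM in SETDB1 knockdown and 55.2 and 37.2 in wde knockdown. It was 5.39 and 7.11 in Nup154 knockdown, 21.2 and 12.2 for NGVP16, and 9.92 and 5.03 for the virgin pair. SETDB1 knockdown stood far above every other library, wde knockdown above the controls, and Nup154 knockdown below the NGVP16 pair and within the range of the virgin pair. Against the NGVP16 pair the log2 fold change was 5.33 ± 0.49 (adjusted p = 0.000268) in SETDB1 knockdown, and this call held under each of the 13 alternatives tried. In wde knockdown CR43264 rose by 1.28 ± 0.42 (adjusted p = 0.0383), a call that ended without wde knockdown replicate 1 (0.207), wde knockdown replicate 2 (0.0585) or NGVP16 replicate 2 (0.104), and with a replicate block (0.0558). In Nup154 knockdown it fell by 1.52 ± 0.43 (adjusted p = 0.0212). That call ended without Nup154 knockdown replicate 1 (0.149), Nup154 knockdown replicate 2 (0.0792) or NGVP16 replicate 1 (0.0951), with ribosomal protein scaling (0.264), and against the virgin pair, where the change was −0.45 (0.430). The host span gene CG15765 stayed at 3.12 CPM or less in all 10 libraries and passed in none of the 3 comparisons.

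A group of sparse genes was read in SETDB1 knockdown and wde knockdown and hardly elsewhere. CR43132 (X, 15689490 to 15691146, plus strand) had 28.4 and 24.4 CPM in SETDB1 knockdown and 2.73 and 1.83 in wde knockdown. It had 0 and 0.0846 in Nup154 knockdown, 0 and 0.0861 in the NGVP16 pair, and 0 in both virgin libraries. With 1 count in the NGVP16 pair, its ratio of CPM was 529 in SETDB1 knockdown (95% exact interval 94.6 to 20917), the set that brought it into the rule, and 45.1 in wde knockdown (7.71 to 1818, adjusted p = 0.00651). These intervals take in counting error and nothing else, since the labels name no molecular identifiers. No fold is given for Nup154 knockdown, where both sets were at 1 count.

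CR45159 (3L, 24290290 to 24290864, minus strand) had 27.1 and 20.4 CPM in SETDB1 knockdown, 6.93 and 8.68 in wde knockdown, 0 and 0.423 in Nup154 knockdown, and 0 in all 4 young control libraries. Against a floor of 3 counts over the NGVP16 pair it was at least 161-fold higher in SETDB1 knockdown (adjusted p = 0.00284) and at least 51.5-fold higher in wde knockdown (adjusted p = 0.00397). CR44560 (3L, 14245993 to 14247011, plus strand) had 13.9 and 13.2 CPM in SETDB1 knockdown, 2.44 and 3.18 in wde knockdown, and 0 in the other 6 libraries. It was at least 89.5-fold higher in SETDB1 knockdown, on which it rests, and at least 18.5-fold higher in wde knockdown (adjusted p = 0.00509). CR44568 (X, 12622212 to 12622771, plus strand) had 8.52 and 9.46 CPM, then 1.86 and 2.89, then 0.174 and 0 in Nup154 knockdown, and 0 in the controls. It also rests on SETDB1 knockdown, where it was at least 58.7-fold higher, and it was at least 15.7-fold higher in wde knockdown (adjusted p = 0.0102). None of the 3 overlapped the control libraries in either knockdown, and each was higher in both SETDB1 knockdown libraries than in both wde knockdown libraries. Such separation of these 2 knockdowns was common: of the 61 genes, 29 were higher and 13 lower in SETDB1 knockdown without overlap. CR45159 did not pass edgeR's test between them, and CR44560 and CR44568 were chosen through their SETDB1 knockdown levels. The wde knockdown calls of CR43132, CR45159, CR44560 and CR44568 and the SETDB1 knockdown call of CR45159 held under each of the 13 alternatives. All of these genes met the rule through knockdown libraries alone, and the alternatives reuse those libraries, so the calls are not free of that choice. No function is assigned to them in the annotation used here.

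Other genes that were high in SETDB1 knockdown had more overlap with wde knockdown or fewer reads. CR42646, whose exons hold fragments of Fw2 and INE-1, had 14.3 and 7.65 CPM in SETDB1 knockdown, 4.30 and 6.95 in wde knockdown, 0.174 and 1.44 in Nup154 knockdown, and at most 0.517 in the young controls. Its log2 fold change was 5.10 in SETDB1 knockdown, on which it rests, and in wde knockdown it rose by 4.14 ± 1.22 (adjusted p = 0.0257). That call ended without wde knockdown replicate 1 (0.0603), wde knockdown replicate 2 (0.0816) or NGVP16 replicate 1 (0.0615), and with ribosomal protein scaling (0.0548). CR43461 had 13.5 and 6.64 CPM in SETDB1 knockdown and at most 1.56 in every other library. Its ratio over the 3 counts of the NGVP16 pair was 70.6 (23.9 to 344), in the set on which it rests. Both CR42646 and CR43461 were higher in each SETDB1 knockdown library than in any control library.

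CR45174 and CR45531 rest on SETDB1 knockdown too, with log2 fold changes of 4.67 and 3.04 there. CR44289 rose in SETDB1 knockdown by 2.36 ± 0.69 (adjusted p = 0.0314) and CR44042 by 1.93 ± 0.49 (0.0194). CR45174 was at 5.20 and 5.84 CPM in SETDB1 knockdown and at 0.423 or less in the other 8 libraries. The call of CR44289 ended without either SETDB1 knockdown library or NGVP16 replicate 2 (0.0588 to 0.126), with ribosomal protein scaling (0.0513), and against the virgin pair (1.55, 0.0978), which was at 8.58 and 6.94 CPM. The call of CR44042 ended without SETDB1 knockdown replicate 2 (0.150). The annotation used here gives these 4 a number only.

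CR44640 (2R) was at 37.8 and 33.9 CPM in wde knockdown, the set on which it rests. It was at 3.81 and 0.201 CPM in SETDB1 knockdown, 1.30 and 2.29 in Nup154 knockdown, 0.736 and 0.0861 for NGVP16, and 0.0496 and 0 for the virgin pair. Both wde knockdown libraries stood above the other 8, while the SETDB1 knockdown pair overlapped the controls. The log2 fold change against the NGVP16 pair was 6.30 in wde knockdown, a description.

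Heat shock loci supply 2 of the named genes. Hsromega makes a nuclear RNA that gathers heterogeneous nuclear ribonucleoproteins (hnRNPs) into omega speckles and is known for its induction by heat, and its span holds mir-4951. It had 342 and 495 CPM in SETDB1 knockdown, 433 and 349 in wde knockdown, 249 and 262 in Nup154 knockdown, 187 and 227 for NGVP16, and 112 and 201 for the virgin pair. All knockdown libraries lay above all young controls, but the log2 differences of 0.88 ± 0.49 (adjusted p = 0.217), 0.75 ± 0.49 (0.247) and 0.21 ± 0.49 (0.773) did not pass the test. When the trend with gene length was removed, all 3 turned negative, to −0.79 (0.302), −0.94 (0.197) and −1.58 (0.0492) in that order. The alphagamma-element lies in the 87C heat shock region beside copies of Hsp70. It had 6.35 and 15.2 CPM in wde knockdown, 2.36 and 4.93 in SETDB1 knockdown, 3.21 and 3.98 in Nup154 knockdown, and 0 to 0.603 in the young controls.

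The alphagamma-element rests on wde knockdown, where its log2 fold change was 4.88. It did not pass in SETDB1 knockdown (3.34 ± 1.19, adjusted p = 0.0690) or Nup154 knockdown (3.36 ± 1.19, 0.0504), but it did under 4 and 9 of the 13 alternatives, with adjusted p from 0.0131 to 0.211 and from 0.0103 to 0.146. Its nearest coding gene, Hsp70Ba at 7560 bp, was higher in each knockdown, by 5.0 ± 0.61 (0.000654), 5.88 ± 0.62 (0.000265) and 6.71 ± 0.64 (0.000101), but Hsp70 copies are near-identical and their reads may be split. Of 8 hnRNPs of the omega speckles that were tested, 0 were higher in any knockdown, and 0, 1 and 3 were lower in SETDB1 knockdown, wde knockdown and Nup154 knockdown, where 9.91%, 17.4% and 17.1% of all genes were lower. By edgeR's unadjusted p under 0.05, 0, 0 and 1 were higher and 1, 3 and 5 lower, and DESeq2 called 0, 0 and 1 higher and 1, 1 and 4 lower. Hrb87F, a core omega speckle protein, fell by 1.02 ± 0.28 (0.0160) in wde knockdown and by 1.19 ± 0.28 (0.00731) in Nup154 knockdown. With scaling to ribosomal protein genes, 0 of the 8 passed in each knockdown, and the median of the list turned to 0.09 in SETDB1 knockdown and 0.03 in wde knockdown, from −0.22 and −0.63.

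Among genes that rose in all the knockdowns, CR31781 (2L, 16869346 to 16878300, plus strand) was the clearest. It had 122 and 98.6 CPM in SETDB1 knockdown, 174 and 139 in wde knockdown, and 226 and 247 in Nup154 knockdown. The NGVP16 libraries had 6.01 and 13.6 CPM, and the virgin libraries 6.79 and 7.62. No knockdown library came near a control library. The log2 fold changes were 3.34 ± 0.37 (adjusted p = 0.000473), 3.83 ± 0.38 (0.000204) and 4.5 ± 0.39 (7.83e-05), and the mean of the 3 knockdowns lay 4.08 ± 0.26 (3.09e-06) above the mean of both young pairs. CR42767 (X, 9557539 to 9558466, minus strand) had 5.20 and 3.02, 8.98 and 4.15, and 10.4 and 10.8 CPM in the knockdowns and at most 0.272 in the young controls. Over the 3 counts of the NGVP16 pair, its ratios were 28.4 (9.45 to 140, adjusted p = 0.00915), 43.2 (14.5 to 212, 0.00369) and 70.1 (23.7 to 342, 0.00171). Both genes passed in all the knockdowns under each of the 13 alternatives. CR42767 met the rule through knockdown libraries alone, and the alternatives reuse those libraries, so its calls are not free of that choice. The shares of muscle and blood cell markers moved with them, and their part in these rises was not tested.

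The gene mimi had 39.8 and 48.7 CPM in SETDB1 knockdown, 53.4 and 27.8 in wde knockdown, 27.5 and 28.3 in Nup154 knockdown, 10.3 and 11.2 for NGVP16, and 3.62 and 4.90 for the virgin pair. It lay above the controls in all 6 knockdown libraries. The log2 fold changes were 1.90 ± 0.40 (adjusted p = 0.00707), 1.74 ± 0.40 (0.00727) and 1.28 ± 0.39 (0.0269). The wde knockdown call ended without wde knockdown replicate 1 (0.0865) and the Nup154 knockdown call without Nup154 knockdown replicate 1 (0.106), Nup154 knockdown replicate 2 (0.114) or NGVP16 replicate 1 (0.0528), or with ribosomal protein scaling (0.0973). CR44281 (2R) had 9.35 and 20.9 CPM in SETDB1 knockdown, 17.2 and 12.3 in wde knockdown, 8.86 and 7.70 in Nup154 knockdown, and at most 3.31 in the young controls. It rose by 2.45 ± 0.72 (adjusted p = 0.0321) and 2.37 ± 0.72 (0.0270) in SETDB1 knockdown and wde knockdown, while the 1.61 ± 0.71 of Nup154 knockdown missed the threshold (0.0993). These 2 calls ended when 1 of several libraries was left out, with adjusted p from 0.0558 to 0.181 without SETDB1 knockdown replicate 2, either wde knockdown library or NGVP16 replicate 2.

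CR32368 (3L) passed as higher in Nup154 knockdown and in neither of the other knockdowns. It had 33.5 and 34.9 CPM in Nup154 knockdown, 20.7 and 12.2 in wde knockdown, 3.19 and 3.32 in SETDB1 knockdown, 7.48 and 3.96 for NGVP16, and 2.13 and 0.408 for the virgin pair. Nup154 knockdown was highest and SETDB1 knockdown lay below the NGVP16 pair. The log2 fold change in Nup154 knockdown was 2.47 ± 0.66 (adjusted p = 0.0163), a call that ended without either Nup154 knockdown library (0.0723 and 0.0785) or NGVP16 replicate 2 (0.0523). CR32385 rests on Nup154 knockdown, where it had 5.65 and 6.35 CPM, against 1.72 and 1.55 for NGVP16.

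Of the 7 genes that hold a microRNA gene on their strand, CR43857, the host of mir-275, changed most. It had 10.9 and 9.36 CPM in SETDB1 knockdown, 8.49 and 6.27 in wde knockdown, 1.74 and 2.03 in Nup154 knockdown, 1.47 and 0.603 for NGVP16, and 0.595 and 0.272 for the virgin pair. SETDB1 knockdown and wde knockdown lay above all other libraries, by log2 fold changes of 3.13 ± 0.77 (adjusted p = 0.0150) and 2.65 ± 0.76 (0.0209) over the NGVP16 pair. The first call ended without SETDB1 knockdown replicate 1 (0.0662) and the second without wde knockdown replicate 1 (0.0983) or NGVP16 replicate 2 (0.0672). CR43836, which holds mir-31b and shares 473 bp of exon with CG10962, fell by 2.24 ± 0.61 (0.0165) in wde knockdown and 2.18 ± 0.61 (0.0172) in Nup154 knockdown. Both calls of CR43836 ended without NGVP16 replicate 2 (0.0885 and 0.0993) or either library of the knockdown concerned (0.0615 to 0.121), and with ribosomal protein scaling (0.158 and 0.0991).

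Of the other microRNA hosts, CR31044, CR43459 and Hsromega passed in no knockdown against the NGVP16 pair. The mean of the knockdowns was higher than the mean of both young pairs for CR31044 and CR43459, and Hsromega did not pass there. CR43651 rests on SETDB1 and wde knockdown and did not pass in Nup154 knockdown. CR43650 rests on Nup154 knockdown and the NGVP16 pair, so its levels are a description. CR31044 (mir-279 and mir-996) ran from 9.16 to 15.9 CPM in the knockdowns and from 2.86 to 8.53 in the young controls. CR43459 (mir-34 and mir-277) ran from 2.88 to 8.69 and from 0.992 to 5.25 CPM. CR43651 (mir-14) ran from 0.608 to 7.03 and from 0.248 to 0.948 CPM. CR43650 (mir-8) ran from 3.22 to 5.76 in the knockdowns and from 0.408 to 9.56 in the young controls, so its groups overlapped. The mature microRNAs were not measured in these libraries.

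**Figure D4:**
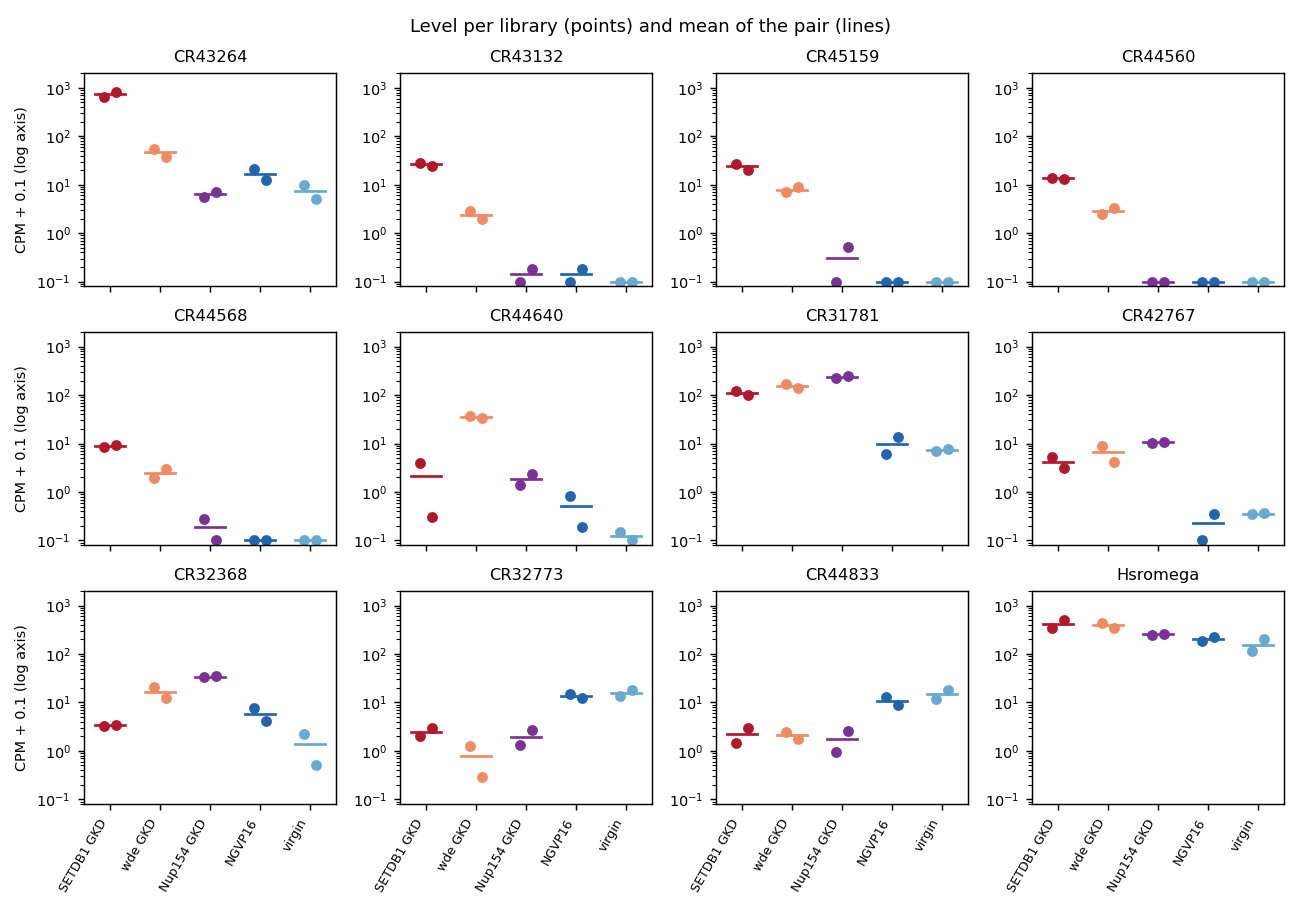
Level as CPM + 0.1 on a log axis in each knockdown and young control library (points) with the mean of each pair (lines) for 12 of the genes. CR43264, CR43132, CR45159, CR44560 and CR44568 step down from SETDB1 knockdown to wde knockdown to the rest, CR44640 is high in wde knockdown, CR31781 and CR42767 are high in all the knockdowns, and CR32773 and CR44833 are low in them.

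Most genes that fell lie on the strand of a coding gene. CR32773 (X), a long locus whose span covers rb, CG11436, Usf, CG11444 and CG12684 on its strand, had 15 and 12.4 CPM for NGVP16, and the virgin libraries had 13.4 and 18.1. It had 1.94 and 2.82 CPM in SETDB1 knockdown, 1.17 and 0.193 in wde knockdown, and 1.22 and 2.54 in Nup154 knockdown. All 6 knockdown libraries were below the 4 controls, with log2 fold changes of −2.67 ± 0.72 (adjusted p = 0.0227), −4.49 ± 0.81 (0.00239) and −2.96 ± 0.73 (0.00994). The wde knockdown call of CR32773 held under each alternative. The SETDB1 knockdown call ended without SETDB1 knockdown replicate 1 (0.142), SETDB1 knockdown replicate 2 (0.0613) or NGVP16 replicate 1 (0.0548) and with a replicate block (0.0801), and the Nup154 knockdown call without Nup154 knockdown replicate 1 (0.101).

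CR44833 (X), within the span of CG15468 on its strand, had 12.9 and 8.70 CPM for NGVP16, 11.9 and 18.0 for the virgin libraries and 0.869 to 2.82 in the knockdowns. It fell by 2.51 ± 0.68 (adjusted p = 0.0226), 2.61 ± 0.68 (0.0138) and 2.80 ± 0.69 (0.00959) on the log2 scale. CR44779 (X), within CG14629, went from 29.2 and 58.3 CPM in the NGVP16 pair to between 5.86 and 16.4 in the knockdowns, with 14.0 and 33.9 in the virgin pair. Its log2 fold changes were −2.28 ± 0.45 (0.00509), −2.87 ± 0.46 (0.00134) and −1.69 ± 0.44 (0.0120), and its Nup154 knockdown libraries overlapped the virgin pair. The calls of CR44833 ended without replicate 1 of the knockdown concerned (0.0690 to 0.157). They ended without NGVP16 replicate 1 in SETDB1 knockdown (0.0681) and wde knockdown (0.0508), and without wde knockdown replicate 2 (0.0844), and the SETDB1 knockdown call ended with a replicate block (0.0677). The Nup154 knockdown call of CR44779 ended without either Nup154 knockdown library (0.106 and 0.0537) or NGVP16 replicate 2 (0.0513), and against the virgin pair (0.121).

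CR45409, which shares 20 bp of exon with Cpsf6, and CR43685, which has no same-strand coding overlap, also passed in each knockdown. CR45409 fell from 21.8 and 19.0 CPM in the NGVP16 pair to between 4.64 and 9.67 in the knockdowns, with log2 fold changes of −2.09 ± 0.45 (adjusted p = 0.00887), −1.46 ± 0.44 (0.0275) and −1.43 ± 0.44 (0.0288). CR43685 went from 44.3 and 32.5 CPM to between 11.5 and 19.9, with −1.18 ± 0.37 (0.0410), −1.46 ± 0.37 (0.0125) and −1.37 ± 0.37 (0.0153). The groups of both genes did not overlap. The 6 calls of CR45409 and CR43685 each ended without 1 or more single libraries, with adjusted p from 0.0556 to 0.184. Against the virgin pair CR45409 did not pass in wde knockdown (0.0546) or Nup154 knockdown (0.0638), nor CR43685 in SETDB1 knockdown (0.145) or Nup154 knockdown (0.0674). Without the filter on low counts, the calls of CR45409 in wde knockdown (0.0507) and Nup154 knockdown (0.0546) and of CR43685 in SETDB1 knockdown (0.0506) ended. DESeq2 size factors ended those of CR45409 in wde knockdown (0.0560) and CR43685 in SETDB1 knockdown (0.0661), and a replicate block those of CR43685 in SETDB1 knockdown (0.0967) and wde knockdown (0.0508). The SETDB1 knockdown call of CR43685 also ended without the adult pair (0.0514) and with upper quartile factors (0.0620). Under scaling to 74 ribosomal protein genes all the falls of CR44833, CR44779, CR45409 and CR43685 ended, as did those of CR32773 in SETDB1 knockdown (0.171) and Nup154 knockdown (0.0929). Eggshell and germline markers moved with these falls, and their part in them was not tested.

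CR42491, whose span holds the small nucleolar RNA gene snoRNA:Psi18S-531, shares 377 bp of exon with RpL22, a ribosomal protein gene. It was at 28.0 and 31.0 CPM in the NGVP16 pair, 13.9 and 18.5 in SETDB1 knockdown, 16.3 and 19.0 in wde knockdown, and 34.2 and 35.6 in Nup154 knockdown. Its log2 fold changes of −1.01 ± 0.30 (adjusted p = 0.0382) and −0.90 ± 0.30 (0.0416) in SETDB1 knockdown and wde knockdown passed narrowly, and leaving out any 1 of 3 libraries in the first and any 1 of 4 in the second ended the call (0.0536 to 0.262). DESeq2, upper quartile and ribosomal protein scaling, the absence of a low-count filter and a replicate block ended both calls (0.0511 to 0.945), and the second ended also under DESeq2's own test (0.0631) and without the adult pair (0.0520). RpL22 itself had −0.87 ± 0.42 (0.161) and −0.96 ± 0.42 (0.0971). CR44953 fell in wde knockdown by 2.63 ± 0.73 (0.0199). CR43493, which rests in part on the NGVP16 pair, had a log2 fold change of −2.46 in Nup154 knockdown. CR44953 did not pass without wde knockdown replicate 1 (0.0784), wde knockdown replicate 2 (0.113) or NGVP16 replicate 1 (0.0685), or with ribosomal protein scaling (0.212). Against the virgin pair the change of CR44953 was −0.82 (0.363) and that of CR43493 −0.98.

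CR42862, the gene with most counts, was uncertain for its overlap with CG33229 and varied between replicates. It had 1158 and 823 CPM in SETDB1 knockdown, 2324 and 1366 in wde knockdown, 2392 and 2483 in Nup154 knockdown, 321 and 1219 for NGVP16, and 240 and 682 for the virgin pair. The NGVP16 libraries overlapped SETDB1 knockdown, and no knockdown passed against them. CR40469 (X, 214 bp) likewise had 85.2 and 394 CPM in SETDB1 knockdown and 110 and 17.2 in the NGVP16 pair, and passed in no knockdown.

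The knockdowns were also compared with one another. SETDB1 knockdown was higher than wde knockdown for 1 of the 61 genes and lower for 0, where 0.12% and 0.13% of all genes passed. The 1 gene was CR43264 (log2 difference 4.05 ± 0.46, adjusted p = 0.00689), a call that ended without wde knockdown replicate 2 (0.0867), with ribosomal protein scaling (0.0823) and with a replicate block (0.0794). Of the 61 genes, 13 had an unadjusted p under 0.05 in that comparison, and DESeq2 called 4 higher and 2 lower. CR43132, at 28.4 and 24.4 against 2.73 and 1.83 CPM, differed by 3.54, a description since it rests on SETDB1 knockdown.

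SETDB1 knockdown was higher than Nup154 knockdown for 6 genes and lower for 1, against 1.33% and 2.06% of all genes. CR43264 differed by 6.86 ± 0.53 on the log2 scale (adjusted p = 0.000322), under each of the 12 alternatives. CR45159 differed by 6.66 ± 1.14 (0.0256) and CR44289 by 3.40 ± 0.72 (0.0334). The other 3 rest on SETDB1 knockdown and are given with no test: CR43132 had a CPM ratio of 624 (112 to 24682) over 1 count, CR44560 was at least 106-fold higher and CR44568 had a ratio of 104 (28.4 to 863) over 2 counts. CR32368 was lower in SETDB1 knockdown, by −3.44 ± 0.69 (0.0299). Leaving out any SETDB1 knockdown or Nup154 knockdown library ended the calls of CR45159, CR44289 and CR32368 (0.0532 to 0.274), as did ribosomal protein scaling (0.0998, 0.166 and 0.113). A replicate block ended those of CR45159 (0.0822) and CR44289 (0.0700).

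For wde knockdown against Nup154 knockdown, 3 genes were higher and 0 lower, where 1% and 0.667% of all genes passed. At an unadjusted p under 0.05 there were 17 in either direction, and DESeq2 called 6 higher and 2 lower. The 3 were CR43264 (2.81 ± 0.45, adjusted p = 0.0193), CR44560 (at least 21.9-fold higher, 0.0380) and CR43132 (ratio 53.2, 9.09 to 2145, 0.0430). Leaving out wde knockdown replicate 1 or either Nup154 knockdown library ended each of these calls (0.107 to 0.343), as did ribosomal protein scaling and a replicate block (0.0617 to 0.119).

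Between the young control pairs 0 of the 61 genes passed edgeR's test, where 0.352% of all genes were higher and 1.65% lower in the virgin pair. At an unadjusted p under 0.05 there were 10, and DESeq2 called 0 higher and 4 lower. The median of the 61 was −0.65, beside −0.06 over all genes. The lowest p was that of CR44042, with 11.6 and 9.30 CPM for NGVP16 and 3.47 and 1.5 for the virgin libraries (−1.97 ± 0.51, adjusted p = 0.0855), and mimi followed the same direction (−1.28 ± 0.40, 0.144). With the virgin pair as control, more of the 61 passed as higher: 27 in SETDB1 knockdown, 24 in wde knockdown and 16 in Nup154 knockdown, where 19.7%, 23.3% and 22% of all genes did. The lower calls were then 6, 8 and 5, against 13.1%, 19.8% and 17.6% of all genes. The mean of the 3 knockdowns against the mean of both young pairs gave 29 higher and 11 lower, against 28.2% and 27.7% of all genes. The counts against the virgin pair and both young pairs include genes that rest on a set compared. Such genes were chosen for their level there, so no excess over the share of all genes is read from these counts.

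Coding genes beside these lncRNA genes were looked up, and the pairs named next were picked after their values were seen. CR43132 and CG15599 start 633 bp apart and face away from each other. CG15599 had 477 and 213 CPM in SETDB1 knockdown, 23.8 and 22.8 in wde knockdown, 2.87 and 2.54 in Nup154 knockdown, 0 and 1.81 for NGVP16, and 0.0496 and 0.408 for the virgin pair. Like CR43132, CG15599 was highest in SETDB1 knockdown and next highest in wde knockdown. Its log2 fold changes were 8.27 ± 0.96 (adjusted p = 0.000730), 4.39 ± 0.85 (0.00492) and 1.36 ± 0.87 (0.255). CR44042 and l(2)41Ab start 225 bp apart facing away. The coding gene rose in each knockdown, by 3.00 ± 0.45 (0.00118), 1.86 ± 0.43 (0.00799) and 1.77 ± 0.43 (0.00928), where CR44042 passed in SETDB1 knockdown only. The last of the l(2)41Ab calls ended without Nup154 knockdown replicate 1 (0.0674).

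CR44281 lies across from ptc, the Hedgehog receptor gene, on the opposite strand. In that pair ptc went from 12.3 and 15.5 CPM in the NGVP16 pair to between 41.8 and 65.7 in the knockdowns, with log2 fold changes of 1.96 ± 0.37 (adjusted p = 0.00405), 1.75 ± 0.37 (0.00486) and 1.79 ± 0.37 (0.00385). Beside CR42767, Cubn at 199 bp passed in Nup154 knockdown only (2.03 ± 0.37, 0.00207), though not with ribosomal protein scaling (0.0552). On the same strand, CG11444, which CR32773 covers, was lower in SETDB1, wde and Nup154 knockdown, as CR32773 was. Its log2 fold changes were −1.47, −1.48 and −1.84 (adjusted p = 0.0110, 0.00712 and 0.00223), and these calls ended with ribosomal protein scaling. Cpsf6, which shares exon with CR45409, was lower in wde knockdown only (−1.04, 0.0305), a call that held under 6 of the 13 alternatives. Other pairs moved apart. CG14629 was higher in wde knockdown (2.41 ± 0.53, 0.00733) and Nup154 knockdown (2.23 ± 0.53, 0.00915) while CR44779, within its span, was lower. AGO3, a PIWI family protein of the germline, lies 986 bp from CR45174 and was lower in SETDB1 knockdown (−1.68 ± 0.36, 0.00788), the set on which CR45174 rests.

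Over all pairs of an lncRNA gene that passed and its nearest coding gene without overlap, the coding gene passed in the same direction in 3 of 15 pairs in SETDB1 knockdown, 3 of 16 in wde knockdown and 2 of 11 in Nup154 knockdown, and in the opposite direction in 1, 1 and 2. For overlapping genes on the opposite strand these were 2 of 15, 4 of 15 and 2 of 15, with 0, 1 and 1 opposite, and on the same strand 1 of 8, 2 of 9 and 2 of 8, with 0, 1 and 1 opposite. Beside them stand the 12.7%, 17.7% and 17.6% of all genes that were higher and the 9.91%, 17.4% and 17.1% that were lower, and nothing particular to the pairs is read from these counts.

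**Figure D5:**
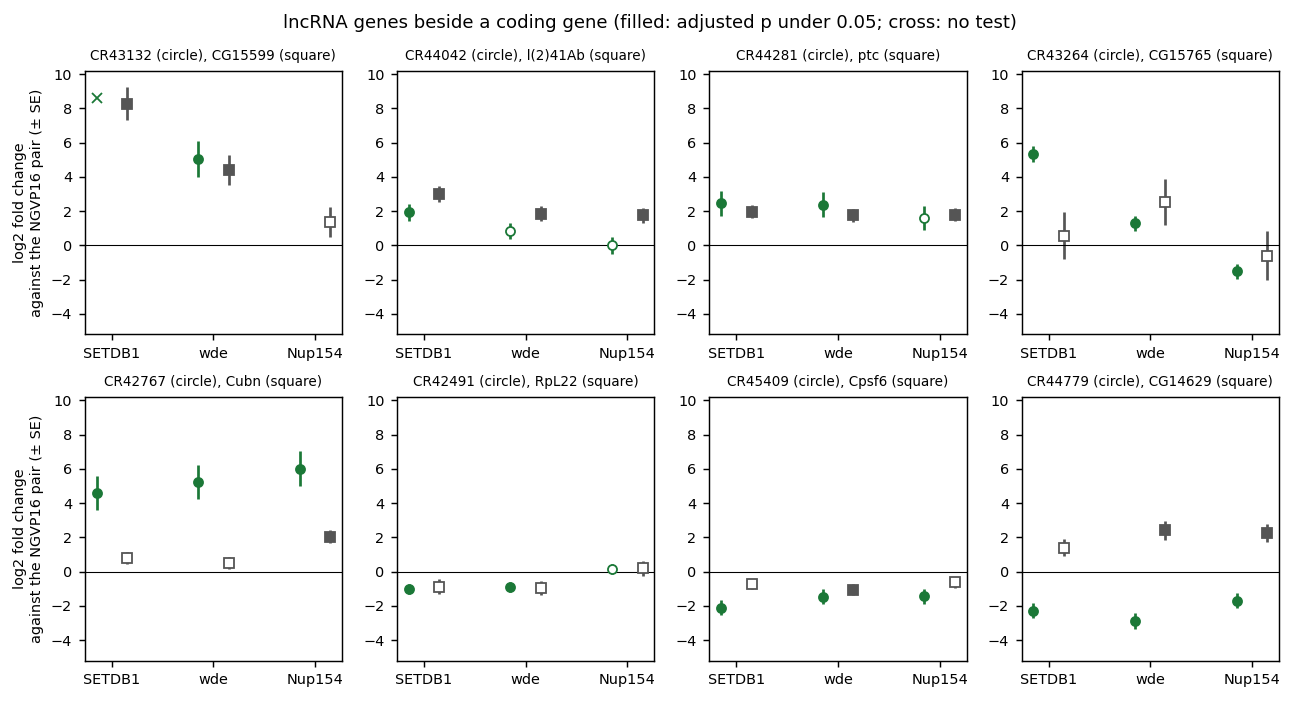
Log2 fold change ± SE against the NGVP16 pair (vertical axis) of 8 lncRNA genes (circles) and a coding gene beside or overlapping each (squares) in the 3 knockdowns; filled marks have an adjusted p under 0.05, and the cross is CR43132 in SETDB1 knockdown, drawn with no test. CR43132 and CG15599 are both high in SETDB1 knockdown and wde knockdown, CR43264 is called while CG15765 is not, and CR44779 and CG14629 lie on opposite sides of 0. CR43132 in Nup154 knockdown is not drawn, since both sets held 1 count.

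Proteins that work with noncoding RNAs were read from lists chosen for their role, beside 12.7%, 17.7% and 17.6% of all genes higher and 9.91%, 17.4% and 17.1% lower in SETDB1 knockdown, wde knockdown and Nup154 knockdown. The piRNA and hnRNP counts are few and in part near those shares. Of 6 dosage compensation genes, which code for the proteins that act with roX RNAs, 0 were higher, and 1, 3 and 3 were lower in SETDB1 knockdown, wde knockdown and Nup154 knockdown. By an unadjusted p and by DESeq2, 0 of the 6 were higher too. The scaffold gene msl-1 fell by 1.31 ± 0.39 (adjusted p = 0.0332), 1.5 ± 0.39 (0.0138) and 1.47 ± 0.39 (0.0139). Of 7 tested genes for small nucleolar RNA particles, 6, 7 and 7 were lower and 0 higher by edgeR, and 0 were higher by an unadjusted p or by DESeq2. Among them Fib, the methyltransferase fibrillarin, fell by 2.40 ± 0.44 (0.00423), 2.75 ± 0.44 (0.00172) and 1.87 ± 0.43 (0.00774), and NHP2 by 2.07 ± 0.48 (0.0128), 2.47 ± 0.48 (0.00427) and 2.63 ± 0.49 (0.00276). Of 12 genes of the piRNA pathway of somatic cells, 1, 0 and 2 were higher and 1, 5 and 4 lower, where DESeq2 called 2, 1 and 2 higher and an unadjusted p gave 0 higher in wde knockdown. The Yb body gene fs(1)Yb rose by 1.63 ± 0.30 (0.00360) in SETDB1 knockdown and 1.28 ± 0.30 (0.00735) in Nup154 knockdown, and shu, a cochaperone, fell by 1.02 ± 0.33 (0.0475), 1.92 ± 0.33 (0.00254) and 2.00 ± 0.34 (0.00166). The medians of the lists in SETDB1 knockdown, wde knockdown and Nup154 knockdown were −0.45, −0.76 and −0.75 for dosage compensation, −1.63, −2.10 and −1.88 for nucleolar particles and −0.18, −0.72 and −0.35 for the piRNA pathway, beside 0.02, −0.01 and 0.00 over all genes. Ribosomal protein scaling left 0 calls in the dosage compensation and piRNA lists and 1, 1 and 2 lower calls in the nucleolar list, and it turned the dosage compensation median to 0.04 in wde knockdown and the piRNA median to 0.22 in SETDB1 knockdown.

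In the adult pair the 61 genes took 0.0585% and 0.0604% of counts, and 36 and 33 of them were at 0 counts. Against the virgin pair 9 were higher and 17 lower, where 22.3% and 47.7% of all genes passed and the median of all genes was −3.54 on the log2 scale. Across all identifiers the adult libraries had a Spearman's rho of 0.421 and 0.434 with virgin replicate 1, while the virgin libraries had 0.954 with each other. Whether the adult counts follow the same strand as the others is not given in the sources used here, and no level of an lncRNA gene in that pair is compared further.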

How the data were processed

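Ovary poly(A) RNA of 12 libraries was measured as raw counts. The authors deposited whole-number counts per FlyBase identifier, with 1 file for each library. The submitters' processing notes name HISAT2 2.1.0, featureCounts 1.4.6, DESeq2 1.24.0 and the dm6 build, and per the labels' protocols the library kit was directional. What each tool did, which annotation release was used and how strand was set are not given in these sources. A wrong or absent strand setting would move reads between a gene and its partner on the opposite strand.

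Symbols, exons and transposable element positions came from Ensembl release 115 of BDGP6, which named 16647 of the 17023 identifiers. The other 376 stayed in the fit. CPM is the count over the library total. Genes with low counts were removed by filterByExpr, which left 10790. The quasi-likelihood test of edgeR 4.0.16 in R 4.3.3 (TMM scaling, robust glmQLFit) used all 12 libraries with a mean for each set. It had 6 residual degrees of freedom, and the common biological coefficient of variation was 0.38. The procedure was also run on simulated data with a smaller spread and no trend with exon length. That run does not show how the procedure performs at the spread of these libraries. The SE is the absolute log2 fold change over the square root of F and is approximate. The NGVP16 pair was the main control, because its titles share a running number with the knockdowns. Floors were 3 counts over a set, and intervals were exact at 95%.

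The named genes were those with a name other than an annotation number and, per knockdown, up to 8 rises and 8 falls past the test whose sets did not overlap and whose higher set held at least 10 CPM, with up to 3 for other comparisons. The rule also took the 5 highest by CPM, the coding genes they overlap on the same strand, the genes at the edge of the level and the partner proteins past the test. Other genes were named after their values were seen. The members and lists were chosen with earlier results of these data known. Alternatives were DESeq2 1.42.0, other scalings, no low-count filter, removal of a length trend, fits without the adult pair or single libraries, the virgin pair as control, a replicate block, and other levels of the rule.

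No pair of replicates was as close as sampling noise. Squared differences between replicates were, by median, 2.88 to 91.4 times what counting noise gives, with the NGVP16 pair highest.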

Additional observations from a re-analysis of the deposited data

How the results depend on the processing

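Over the single genes and their alternatives, 1709 of 2067 values kept direction and side of the threshold, 225 lost a call and 67 gained one. Another 66 changed sign, 0 of them called in the reported fit and 2 called under the alternative. CR44042 in Nup154 knockdown, near 0 against the NGVP16 pair, was 1.96 higher on the log2 scale against the virgin pair, and Hsromega there fell by 1.58 with the length trend removed. The median log2 fold change over all genes, 0.02, −0.01 and 0.00 in SETDB1, wde and Nup154 knockdown, became 0.447, 0.744 and 0.292 when libraries were scaled to ribosomal protein genes, 0.145, 0.172 and 0.0541 with DESeq2 size factors, and −0.160, −0.249 and −0.231 with the length trend removed. The cause of the changed counts below was not tested, apart from those that only redefine the genes counted.

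With ribosomal protein scaling the lower calls among the genes became 0, 1 and 0 in SETDB1, wde and Nup154 knockdown, and 4 for the mean of the knockdowns. Between knockdowns the higher calls became 0 for SETDB1 against wde, 2 for SETDB1 against Nup154 and 0 for wde against Nup154, with 0 lower for SETDB1 against Nup154. In the adult pair 26 were higher and 0 lower. DESeq2 gave 9 higher in Nup154 knockdown, 4 higher and 2 lower for SETDB1 against wde, 12 and 3 for SETDB1 against Nup154, 6 and 2 for wde against Nup154, and 4 lower in the virgin pair. Without a filter on low counts, 2 were higher in SETDB1 than in wde knockdown and 2 lower in the virgin than in the NGVP16 pair. With the length trend removed, 3 were lower in SETDB1 and 1 in wde than in Nup154 knockdown, and the adult pair had 15 higher and 10 lower. Without the adult pair, 8 were higher in Nup154 knockdown and 2 lower in SETDB1 than in Nup154 knockdown.

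With a rule of 2 CPM, 26 were higher in SETDB1 knockdown, and 15 were higher and 13 lower in Nup154 knockdown. With 10 CPM, 10 and 9 were higher in SETDB1 and wde knockdown. With a mean of 5 CPM, 8, 7 and 3 were higher in the knockdowns in that order, and the genes without same-strand overlap had 1, 2 and 3 lower calls. Against the virgin pair 27, 24 and 16 were higher, and 5 were lower in Nup154 knockdown. In all the counts of this section, genes that rest on a set compared were left in.

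The replicate numbers showed no pairing across all sets, but same-numbered libraries of SETDB1 and wde knockdown correlated in their deviations (r = 0.388 across genes). The other pairs of sets had r from −0.169 to 0.0176. The main fit takes no pairing into account. A fit with a replicate block gave 14 higher and 2 lower, 12 and 6, and 5 and 7 in SETDB1, wde and Nup154 knockdown. The same libraries without the block, a fit added after the data were seen, gave 15 and 5, 16 and 9, and 7 and 9. With the block 0 were higher in SETDB1 than in wde knockdown, 2 in SETDB1 and 0 in wde than in Nup154 knockdown.

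Leaving out single libraries gave 11 to 16 higher and 1 to 6 lower calls in SETDB1 knockdown, with 1 lower without its replicate 1 and 3 without its replicate 2. It gave 8 to 15 and 2 to 6 in wde knockdown, with 8 and 9 higher and 2 and 3 lower without its replicates 1 and 2, and 4 lower without NGVP16 replicate 1. It gave 2 to 7 and 0 to 6 in Nup154 knockdown, with 3, 2 and 3 higher without its replicates 1 and 2 and NGVP16 replicate 1, and 0, 2 and 5 lower. The ranges were 0 to 1 and 0 to 1 for SETDB1 against wde, 1 to 4 and 0 to 0 for SETDB1 against Nup154, 0 to 1 and 0 to 0 for wde against Nup154, 0 to 1 and 0 to 5 for the virgin against the NGVP16 pair (1 and 5 without NGVP16 replicate 2), 23 to 30 and 8 to 11 for the mean of the knockdowns, and 7 to 9 and 14 to 17 for the adult pair. Where 1 library was left in a set, its spread was taken from the other sets. Depth limits the sparse genes: 5 CPM was 36.8 to 101 counts in the 10 libraries, and genes at 0 counts could not be told from low levels.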
